A study of Homo sapiens with 192 samples.

Results

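The 10 genes described here encode channels, cotransporters, exchangers and a water channel of the intestinal epithelium: CFTR, ANO1, SLC12A2, KCNQ1, KCNE3, SLC26A3, SLC26A6, SLC9A2, SLC9A3 and AQP3. They were listed by name for this role, with earlier results of these data known, and make up 10 of the 58243 genes counted. Counts of their calls beside shares of all genes are therefore descriptions. RNA was sequenced from HT29, LS513, HCT116 and LS174T cells, which are 4 human colorectal carcinoma lines, each labelled as 2D growth or 3D growth, with 3 libraries in each of the 8 groups. HT29, LS513 and LS174T cells were maintained in DMEM and HCT116 cells in McCoy medium, so the line and the medium cannot be told apart in a comparison with HCT116. No group carried a drug, a transgene or an edited gene, and how the 3D cultures for RNA were made is not stated in the sources used here. The labels do not say whether the libraries of a group came from separate cultures, so the p-values measure only the spread between these libraries.

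An enterocyte or crypt cell moves salt across itself by placing different transporters on its blood side and its lumen side, and water follows the salt. For secretion, chloride is loaded through the basolateral cotransporter SLC12A2 and leaves through apical channels, mainly CFTR, which cyclic AMP signalling opens. Basolateral potassium channels made of KCNQ1 and its partner subunit KCNE3 carry potassium back out and keep the driving force. For absorption, apical sodium-proton exchangers (SLC9A2 and SLC9A3) work beside chloride-anion exchangers (SLC26A3 and SLC26A6). Loss of SLC26A3 causes congenital chloride diarrhoea, and loss of CFTR causes cystic fibrosis.

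Levels are given as CPM, a gene's reads per 1000000 reads counted in the library, after scaling of the libraries by edgeR's trimmed mean of M values (TMM). A count of 3 reads in a library was taken as the floor of detection, which is 0.0853 to 0.164 CPM over the libraries, and a gene was called detected in a group when all 3 libraries lay above it. Differences are log2 fold changes from edgeR's quasi-likelihood test. Their standard error (SE) was derived as the absolute log2 fold change over the square root of the test's F statistic. P-values were adjusted by Benjamini-Hochberg over the 19387 genes that passed the filter on low counts. A call means an adjusted p under 0.05. In all, 9 of the 10 genes passed that filter, and SLC26A3 did not. In bulk RNA, fewer cells that express a gene and less of its RNA in each cell cannot be told apart.

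The libraries held 18723942 to 34277421 counted reads, and an HT29 2D library was the shallowest. Mitochondrial genes took 1.14% to 6.40% of the counts, with the highest share in HCT116 3D replicate 1. All 8 markers of colonic epithelium, such as EPCAM and VIL1, were detected in 7 groups and 7 of 8 in HCT116 2D, with a summed level of 2874 to 17307 CPM per library. In 2D the sums were 14584 to 17307 CPM in HT29 and 9457 to 9705 CPM in LS513. They were 2874 to 3562.5 CPM in HCT116 2D and 3265 to 4567 CPM in LS174T 2D. Of 4 immune markers, PTPRC, CD3E and MS4A1 were at or under the floor in every group, and CD68, which is not restricted to immune cells, carried the summed level of the list, from 2.08 to 20.5 CPM in 2D libraries and from 5.04 to 91.8 CPM in 3D libraries. Their part in the results was not tested. Of 5 fibroblast markers at most 2 were detected in a group, and COL1A2, COL3A1 and DCN were at or under the floor in all. The fibroblast list summed to 13.1 to 15.2 CPM in HCT116 2D and 10.2 to 22.1 CPM in HCT116 3D. In the other lines it reached at most 1.10 CPM. Of 3 endothelial markers at most 1 was detected in a group, and that list summed to at most 2.38 CPM.

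Which of these genes each line carried differed before any effect of growth. ANO1, SLC12A2, KCNQ1, SLC26A6, SLC9A2 and AQP3 were detected in all 8 groups. CFTR was detected in 6 groups and missing from HCT116, KCNE3 in 4 groups (HT29 and LS513), SLC9A3 in 2 groups (LS174T), and SLC26A3 in none. HT29, LS513 and LS174T thus each held 8 of the 10 genes and HCT116 held 6. Summed over the 10 genes on a scale that divides CPM by exonic length in kilobases, the mean level was 25.1 CPM per kilobase in HCT116 2D and 25.4 in HCT116 3D, against 141 to 189 in the other 6 groups.

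**Figure D1:**
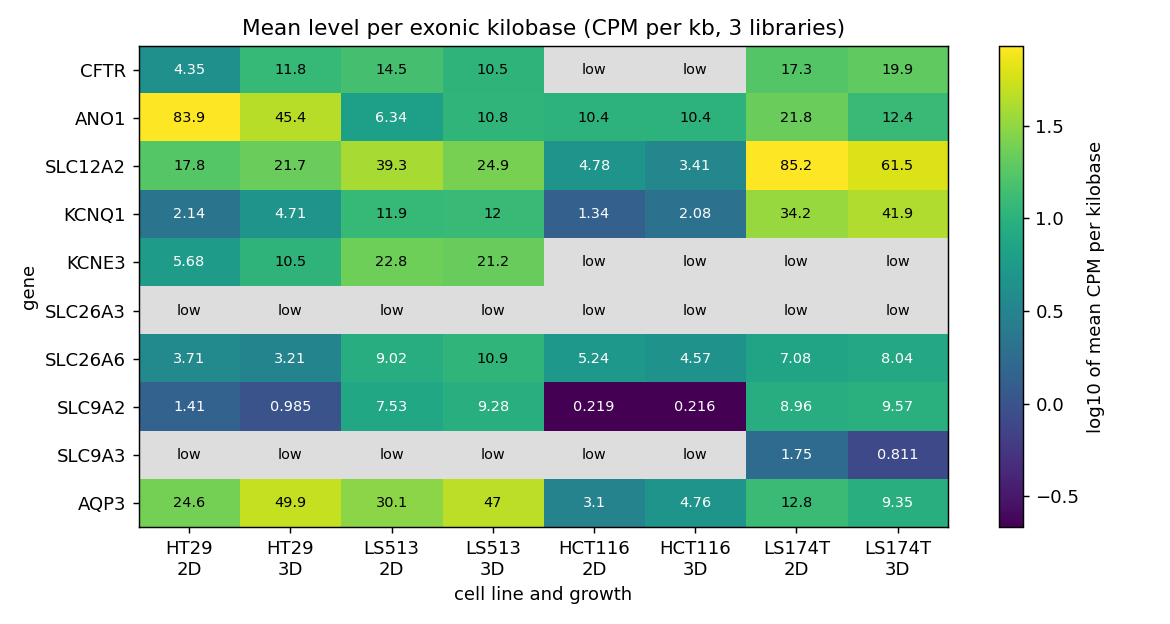
Mean level of each gene (rows) in each line and growth condition (columns) in CPM per exonic kilobase, over 3 libraries, with colour on a log10 scale. Grey cells marked low are groups in which fewer than 3 libraries lay above the floor of 3 counts. SLC12A2 in LS174T 2D (85.2) and ANO1 in HT29 2D (83.9) were the highest cells, and SLC26A3 was low in every group.

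The reference promoters of the 4 genes that were not detected in at least 1 line are shown, of which CFTR, KCNE3 and SLC9A3 were detected in some lines and not in others, and SLC26A3 in none. Each run is the 250 bases before the RefSeq start of the gene on build GRCh38.p14, 5′ to 3′ on the strand of the gene, with every CG dinucleotide in capitals.
CFTR (chr7:117479775-117480024, plus strand): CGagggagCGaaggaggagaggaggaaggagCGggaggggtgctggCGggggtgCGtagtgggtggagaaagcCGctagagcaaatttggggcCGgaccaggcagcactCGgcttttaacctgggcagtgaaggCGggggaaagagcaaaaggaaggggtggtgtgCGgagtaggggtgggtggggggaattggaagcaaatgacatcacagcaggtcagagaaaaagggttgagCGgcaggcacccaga
KCNE3 (chr11:74467550-74467799, minus strand): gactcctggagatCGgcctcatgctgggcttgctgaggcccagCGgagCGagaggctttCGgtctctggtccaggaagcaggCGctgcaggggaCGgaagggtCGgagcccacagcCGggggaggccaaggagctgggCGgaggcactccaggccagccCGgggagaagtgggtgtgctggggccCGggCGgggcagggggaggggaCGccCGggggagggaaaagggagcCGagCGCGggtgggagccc
SLC9A3 (chr5:524450-524699, minus strand): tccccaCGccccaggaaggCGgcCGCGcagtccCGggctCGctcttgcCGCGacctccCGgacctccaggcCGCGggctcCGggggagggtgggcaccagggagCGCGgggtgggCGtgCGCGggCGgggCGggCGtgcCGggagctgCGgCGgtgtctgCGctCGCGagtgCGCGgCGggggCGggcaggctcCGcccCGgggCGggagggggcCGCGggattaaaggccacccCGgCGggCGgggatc
SLC26A3 (chr7:107803224-107803473, minus strand): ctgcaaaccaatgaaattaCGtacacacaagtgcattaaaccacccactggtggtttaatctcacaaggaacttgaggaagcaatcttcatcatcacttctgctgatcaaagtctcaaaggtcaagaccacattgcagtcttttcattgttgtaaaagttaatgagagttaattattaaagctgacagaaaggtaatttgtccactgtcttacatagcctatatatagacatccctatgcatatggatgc
These windows held 11, 17, 38 and 1 CG dinucleotides, in the order shown, against a median of 11 over the 35116 windows of the same length. The SLC26A3 window was also the poorest in G and C, at 37.6%, while that of SLC9A3 reached 82.0%. RefSeq windows were matched for 9 of the 10 genes, and KCNQ1 was the one without an entry. GGGCGG, read on both strands, occurred in windows of 7 of the 9 genes, including KCNE3 and SLC9A3 but neither CFTR nor SLC26A3, and in 42.6% of all windows. CCAAT occurred in 3 of the 9 (CFTR, SLC26A3 and SLC26A6; 32.0% of all windows), TATAAA in AQP3 alone (10.7%) and GTTAAT in SLC26A3 alone, at 2 places (6.23%). These are matches of letters in the reference and no measurement of these cells.

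SLC12A2, the cotransporter that loads chloride from the blood side (chromosome 5, 128083766 to 128189688 on GRCh38, plus strand, ENSG00000064651), was the most abundant of the 10 genes per kilobase in LS174T and in LS513 2D. In LS174T its level was 802, 975 and 949.5 CPM in 2D and 687, 433 and 848 CPM in 3D. In LS513 it was 403, 417 and 438 CPM in 2D and 261, 204 and 332 CPM in 3D. The LS513 3D libraries all lay below the 2D libraries, whereas in LS174T the ranges overlapped through 3D replicate 3. SLC12A2 fell in LS513 by 0.66 on the log2 scale (SE 0.22, adjusted p = 0.0356 by edgeR), and this call was lost when any of 5 of the 6 LS513 libraries was left out (adjusted p 0.0703 to 0.199 by edgeR). HT29 held 189 ± 42.4 CPM in 2D and 231 ± 50.8 CPM in 3D (SD, n = 3), with a log2 fold change of 0.29 (SE 0.22) and an edgeR adjusted p of 0.321. HCT116 was lowest, at 51.0 ± 13.5 and 36.4 ± 3.38 CPM (SD, n = 3), with a log2 fold change of -0.49 (SE 0.23, edgeR adjusted p = 0.115). The log2 fold change of LS174T, -0.47 (SE 0.22), was not called either (edgeR adjusted p = 0.130), but it was called without 3D replicate 3 (-0.70, adjusted p = 0.0340 by edgeR), as was that of HCT116 without 2D replicate 3 (-0.72, adjusted p = 0.0232 by edgeR).

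CFTR, the cyclic AMP-regulated chloride and bicarbonate channel (chromosome 7, 117465784 to 117715971, plus strand, ENSG00000001626), rose in HT29 cells grown in 3D. HT29 held 47.5, 26.7 and 47.8 CPM in 2D and 124, 96.7 and 109 CPM in 3D. Every 3D library was above every 2D library, and the lowest value came from 2D replicate 2. The log2 fold change was 1.44 (SE 0.16, edgeR adjusted p = 1.04e-06), a 2.71-fold rise. LS513 went the other way, from 133, 135 and 139 CPM in 2D to 96.6, 86.1 and 112 CPM in 3D, again with no overlap. CFTR fell there by 0.47 on the log2 scale (SE 0.16, edgeR adjusted p = 0.0361), a call lost when any of 5 of the 6 LS513 libraries was left out (adjusted p 0.0750 to 0.166 by edgeR). LS174T had the highest CFTR, at 145, 168 and 171 CPM in 2D and 178, 173 and 206 CPM in 3D, and although its 3D libraries all lay above its 2D libraries the log2 fold change of 0.20 (SE 0.16) was not called (edgeR adjusted p = 0.383). HCT116 had 0 CFTR counts in 5 libraries and 1 count in 3D replicate 2. Against the floor of 3 counts per library, CFTR in 2D was at least 423-fold higher in HT29, at least 1412-fold higher in LS513 and at least 1679-fold higher in LS174T than in HCT116.

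The order of CFTR levels over the lines shifted with growth. In 2D the order was LS174T, LS513, HT29 and HCT116, and the difference between LS174T and LS513 was not called (edgeR adjusted p = 0.187) while LS513 exceeded HT29 by 3.35-fold (adjusted p = 5.78e-09). In 3D HT29 stood next to LS174T, which exceeded it by 1.69-fold (edgeR adjusted p = 0.000262), and HT29 and LS513 overlapped (adjusted p = 0.384). The growth effect in HT29 exceeded that in LS513 by 1.91 on the log2 scale (SE 0.23, edgeR adjusted p = 6.17e-06) and that in LS174T by 1.24 (SE 0.23, adjusted p = 0.00159), whereas LS513 and LS174T were not called different (-0.67, SE 0.22, adjusted p = 0.113).

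ANO1, a calcium-activated chloride channel also known as TMEM16A (chromosome 11, 70078302 to 70189528, plus strand, ENSG00000131620), was highest in HT29 and changed there in the direction opposite to CFTR. HT29 held 507, 537 and 472 CPM in 2D and 289, 231 and 299 CPM in 3D. The groups did not overlap, and ANO1 fell by 0.89 on the log2 scale (SE 0.14, edgeR adjusted p = 4.28e-05). LS513, the line with the least ANO1 in 2D, held 36.4, 30.4 and 47.6 CPM in 2D and 67.6, 61.9 and 66.4 CPM in 3D, a rise of 0.78 (SE 0.15, edgeR adjusted p = 0.000443) with all 3D libraries above all 2D libraries. LS174T went from 150.0, 120.5 and 124 CPM to 83.3, 57.6 and 83.8 CPM, so that ANO1 fell there by 0.81 (SE 0.14, edgeR adjusted p = 0.000388). HCT116 held 62.7 ± 4.55 CPM in 2D and 62.4 ± 4.20 CPM in 3D (SD, n = 3), with a log2 fold change of -0.01 (SE 0.14) and an edgeR adjusted p of 1.00. The growth effect in LS513 differed from those in HT29 (by 1.66, SE 0.20, edgeR adjusted p = 5.39e-06), HCT116 (0.78, SE 0.21, adjusted p = 0.0276) and LS174T (1.59, SE 0.21, adjusted p = 3.87e-05). Those of HT29 and LS174T were not called different (-0.08, SE 0.20, edgeR adjusted p = 0.938).

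CFTR and ANO1 RNA moved in opposite directions in HT29 and in LS513, so the ratio of their RNA levels shifted. The CFTR call in LS513 was lost in leave-one-out fits as given above, and channel protein or activity was not measured. Per kilobase, CFTR over ANO1 was 0.0526 ± 0.0179 in HT29 2D and 0.261 ± 0.0224 in HT29 3D (SD, n = 3). In LS513 the ratio was 2.37 ± 0.493 in 2D and 0.967 ± 0.101 in 3D, and in LS174T it was 0.805 ± 0.158 and 1.63 ± 0.282 (SD, n = 3). In each of these lines the 3 ratios of 3D libraries and those of 2D libraries did not overlap, and the ratio was higher in 3D in HT29 and LS174T and lower in 3D in LS513. An exact permutation test of 3 against 3 libraries cannot give a p below 0.1, so the ratios are descriptions. ANO1 was the sole channel of the pair detected in HCT116.

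**Figure D2:**
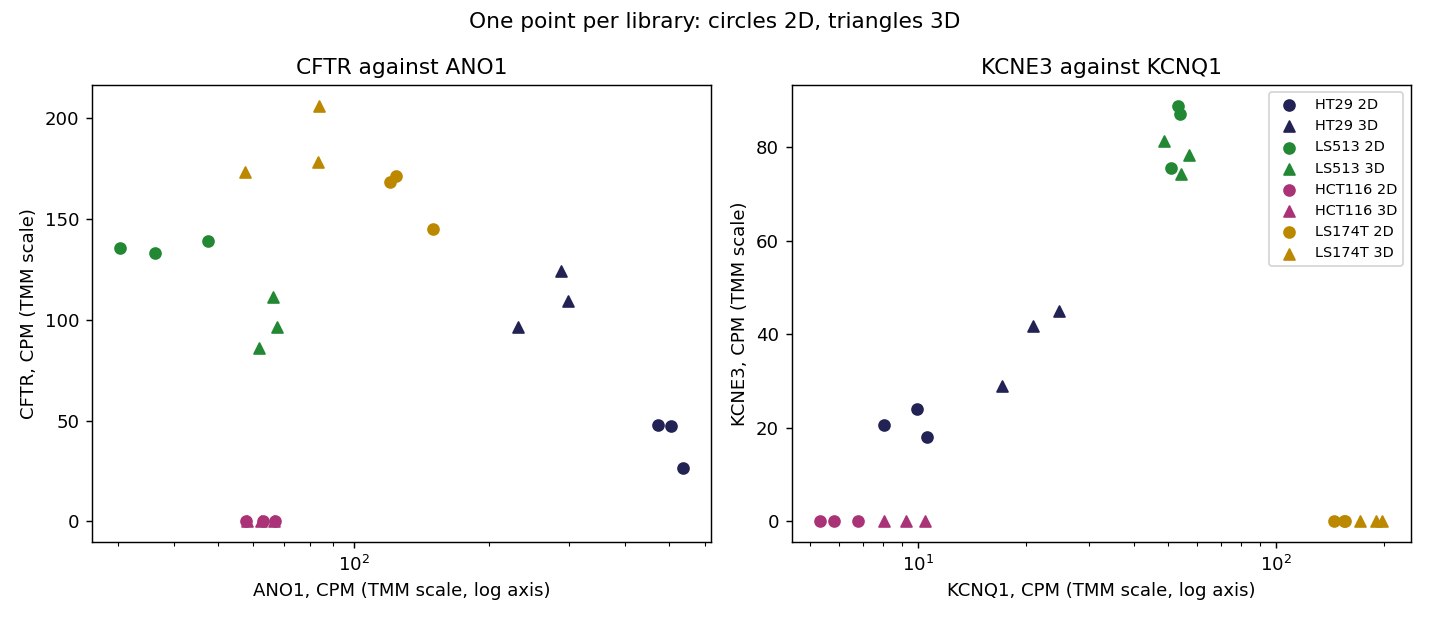
Each point is a library, coloured by line, with circles for 2D and triangles for 3D. On the left CFTR (CPM, linear axis) is plotted against ANO1 (CPM, log axis), where HT29 moved to lower ANO1 and higher CFTR in 3D and LS513 moved the opposite way. On the right KCNE3 is plotted against KCNQ1 on the same kinds of axis, where LS174T had the highest KCNQ1 with KCNE3 at 0 to 2 counts.

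KCNQ1, the pore-forming subunit of a voltage-gated potassium channel (chromosome 11, 2444684 to 2849110, plus strand, ENSG00000053918), rose with 3D growth in HT29 and HCT116. HT29 held 10.6, 8.02 and 9.92 CPM in 2D and 24.7, 17.2 and 21.0 CPM in 3D. HCT116 held 5.32, 5.81 and 6.80 CPM in 2D and 10.4, 9.25 and 8.02 CPM in 3D. Neither line showed overlap, with log2 fold changes of 1.14 (SE 0.13, edgeR adjusted p = 6.00e-07) and 0.63 (SE 0.14, adjusted p = 0.00132). LS174T carried the most KCNQ1, 155, 145 and 156 CPM in 2D and 189.8, 198 and 171 CPM in 3D, also without overlap, but its log2 fold change of 0.29 (SE 0.12) was not called (edgeR adjusted p = 0.0786) unless 3D replicate 3 was left out (0.35, adjusted p = 0.0434 by edgeR). LS513 held 52.7 ± 1.53 and 53.3 ± 4.24 CPM (SD, n = 3), a log2 fold change of 0.02 (SE 0.12, edgeR adjusted p = 0.991). The order LS174T, LS513, HT29, HCT116 held in both conditions with every neighbour called different, by 1.59-fold to 5.56-fold. The growth effect in HT29 exceeded those in LS513 (by 1.13, SE 0.18, edgeR adjusted p = 0.00011) and LS174T (by 0.85, SE 0.18, adjusted p = 0.00380) but was not called different from that in HCT116 (0.52, SE 0.19, adjusted p = 0.104).

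KCNE3, the accessory subunit that holds KCNQ1 open in intestinal crypts (chromosome 11, 74454841 to 74467729, minus strand, ENSG00000175538), was seen in HT29 and LS513 only among these lines. HT29 held 18.0, 20.5 and 24.1 CPM in 2D and 45.0, 29 and 41.8 CPM in 3D. The HT29 groups did not overlap, and KCNE3 rose by 0.89 on the log2 scale (SE 0.16, edgeR adjusted p = 0.000305). LS513 held 87.0, 88.8 and 75.6 CPM in 2D and 74.2, 78.3 and 81.4 CPM in 3D, which overlapped, with a log2 fold change of -0.10 (SE 0.16, edgeR adjusted p = 0.709). HCT116 had 0 counts in all 6 libraries, and LS174T had 0, 2 and 0 counts in 2D and 0, 1 and 0 in 3D, so KCNE3 in LS513 2D was at least 871-fold higher than in HCT116 and at least 934-fold higher than in LS174T. The growth effect in HT29 exceeded that in LS513 by 1.00 (SE 0.23, edgeR adjusted p = 0.00629).

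Both subunits rose in HT29, where the ratios of 2D and 3D libraries overlapped. KCNE3 over KCNQ1 per kilobase was 2.70 ± 0.555 in HT29 2D and 2.22 ± 0.183 in 3D, and 1.92 ± 0.115 and 1.78 ± 0.209 in LS513 2D and 3D (SD, n = 3). In LS174T KCNQ1 reached 41.9 CPM per kilobase in 3D, above 93.6% of the genes tested, with KCNE3 under the floor. Of the other partner subunits listed, KCNE1, KCNE2 and KCNE4 all failed the filter on low counts, with means of at most 0.0792 CPM in any group.

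SLC26A3, the chloride-bicarbonate exchanger of the colonic surface (chromosome 7, 107765467 to 107803225, minus strand, ENSG00000091138), had 29 counts in the whole series. Of these, 28 came from LS513, with 4, 3 and 4 counts in 2D and 5, 9 and 3 counts in 3D, and 1 came from HT29 3D. LS513 was thus the sole line above 1 count, and its groups overlapped. The gene was not tested, and at this depth no growth effect could be detected.

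SLC26A6, a broader anion exchanger that carries chloride, bicarbonate and oxalate (chromosome 3, 48625723 to 48635493, minus strand, ENSG00000225697), varied least of the 6 genes detected in every group, by 3.39-fold between the lowest and the highest group mean. Its 2D and 3D means were 23.7 ± 1.88 and 20.5 ± 0.768 CPM in HT29, and 57.5 ± 3.30 and 69.4 ± 7.43 CPM in LS513 (SD, n = 3). They were 33.4 ± 3.41 and 29.1 ± 11.1 CPM in HCT116, and 45.1 ± 2.36 and 51.2 ± 10.3 CPM in LS174T (SD, n = 3). No growth effect was called, with log2 fold changes of -0.21 to 0.27 (SE 0.17 to 0.18) and edgeR adjusted p-values of 0.283 to 0.479. The wide HCT116 3D spread came from replicate 1 (41.1 CPM against 27.0 and 19.3), the library with the largest mitochondrial share, and without it SLC26A6 was called lower in 3D (-0.55, adjusted p = 0.0125 by edgeR).

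SLC9A2, an apical sodium-proton exchanger of the intestine and stomach (chromosome 2, 102619707 to 102711318, plus strand, ENSG00000115616), spanned 44.4-fold between group means, the widest range of the 6 genes detected in all groups. HT29 held 8.54, 7.47 and 9.31 CPM in 2D and 4.19, 6.09 and 7.40 CPM in 3D. These groups were separated by a small margin, and SLC9A2 fell by 0.52 (SE 0.19, edgeR adjusted p = 0.0331), a call lost when any of 4 of the 6 HT29 libraries was left out (adjusted p 0.0802 to 0.265 by edgeR). LS513 held 45.1 ± 1.02 and 55.5 ± 8.66 CPM and LS174T 53.6 ± 2.80 and 57.3 ± 15.4 CPM in 2D and 3D (SD, n = 3), neither called (edgeR adjusted p = 0.213 and 0.726). HCT116 had 31 to 48 counts per library, 1.31 ± 0.144 CPM in 2D and 1.29 ± 0.226 CPM in 3D (SD, n = 3), and its log2 fold change was -0.02 (SE 0.26, edgeR adjusted p = 0.994). LS513 exceeded HT29 by 5.36-fold in 2D and 9.46-fold in 3D, and LS513 and LS174T were not called different in either condition (edgeR adjusted p = 0.212 and 0.844). The growth effect in HT29 was lower than that in LS513 (-0.82, SE 0.25, edgeR adjusted p = 0.0359), and no other pair of lines was called.

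SLC9A3, the main sodium-proton exchanger of absorptive enterocytes (chromosome 5, 470458 to 524332, minus strand, ENSG00000066230), was a transcript of LS174T in this panel. LS174T held 7.98, 9.98 and 11.6 CPM in 2D and 4.51, 3.46 and 5.74 CPM in 3D. The groups did not overlap, and SLC9A3 fell by 1.11 (SE 0.24, edgeR adjusted p = 0.00275), a 2.15-fold decrease. The other lines gave 0 to 6 counts per library, and LS174T 2D was at least 60.0-fold, 102-fold and 103-fold higher than HT29, LS513 and HCT116 2D. In HCT116 the counts were 0, 1 and 1 in 2D and 2, 6 and 3 in 3D, and the resulting call (edgeR adjusted p = 0.0457) rested on 1 library above the floor and was lost without any of 5 of the 6 libraries (adjusted p 0.0594 to 0.215 by edgeR) and with DESeq2 (adjusted p = 0.0724). SLC9A3 shares 41.9% of its exonic bases with PP7080 on the same strand. It shares 14.9% with EXOC3 and 14.7% with SLC9A3-AS1 on the opposite strand. How the counting treated reads of such stretches is not stated, which makes the SLC9A3 level uncertain. In HT29 2D, PP7080 stood at 49.2 CPM and EXOC3 at 104 CPM, while SLC9A3 stood at 0.0755 CPM. SLC9A3-AS1 was likewise highest in LS174T, at 102 ± 10.4 CPM in 2D and 67.8 ± 3.76 CPM in 3D (SD, n = 3; edgeR adjusted p = 0.0649), against means of 7.85 to 26.4 CPM in the other groups, and its part in the SLC9A3 level was not tested. Within LS174T, SLC9A2 over SLC9A3 per kilobase was 5.21 ± 0.730 in 2D and 11.8 ± 0.707 in 3D (SD, n = 3), with no overlap. This ratio divides by all exonic bases of SLC9A3, the shared ones included, so its size is uncertain too.

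AQP3, a basolateral channel for water and glycerol (chromosome 9, 33441154 to 33447633, minus strand, ENSG00000165272), was the one gene of the 10 called in all 4 lines, which held for 5.78% of the genes tested. HT29 held 71.5, 80.2 and 66.1 CPM in 2D and 157, 131 and 153 CPM in 3D. LS513 held 79.3, 82.9 and 104 CPM in 2D and 136, 142 and 138 CPM in 3D. Both lines showed complete separation, and AQP3 rose by 1.02 in HT29 (SE 0.13, edgeR adjusted p = 1.84e-06) and by 0.64 in LS513 (SE 0.13, adjusted p = 0.000617). HCT116 went from 7.40, 9.60 and 10.5 CPM to 14.6, 13 and 14.5 CPM, a rise of 0.62 (SE 0.14, edgeR adjusted p = 0.00163). LS174T went the opposite way, from 41.2, 31.4 and 41.0 CPM to 25.4, 30.2 and 27.1 CPM, and AQP3 fell there by 0.46 (SE 0.13, edgeR adjusted p = 0.0140). That decrease was lost when any of 3 of the 6 LS174T libraries was left out (adjusted p 0.0574 to 0.0680 by edgeR) and when only the 6 LS174T libraries were fitted (adjusted p = 0.0772 by edgeR). The growth effect in LS174T was lower than in each other line, by 1.48 for HT29 (SE 0.18, edgeR adjusted p = 1.51e-05), 1.10 for LS513 (SE 0.18, adjusted p = 0.000539) and 1.08 for HCT116 (SE 0.19, adjusted p = 0.000813).

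**Figure D3:**
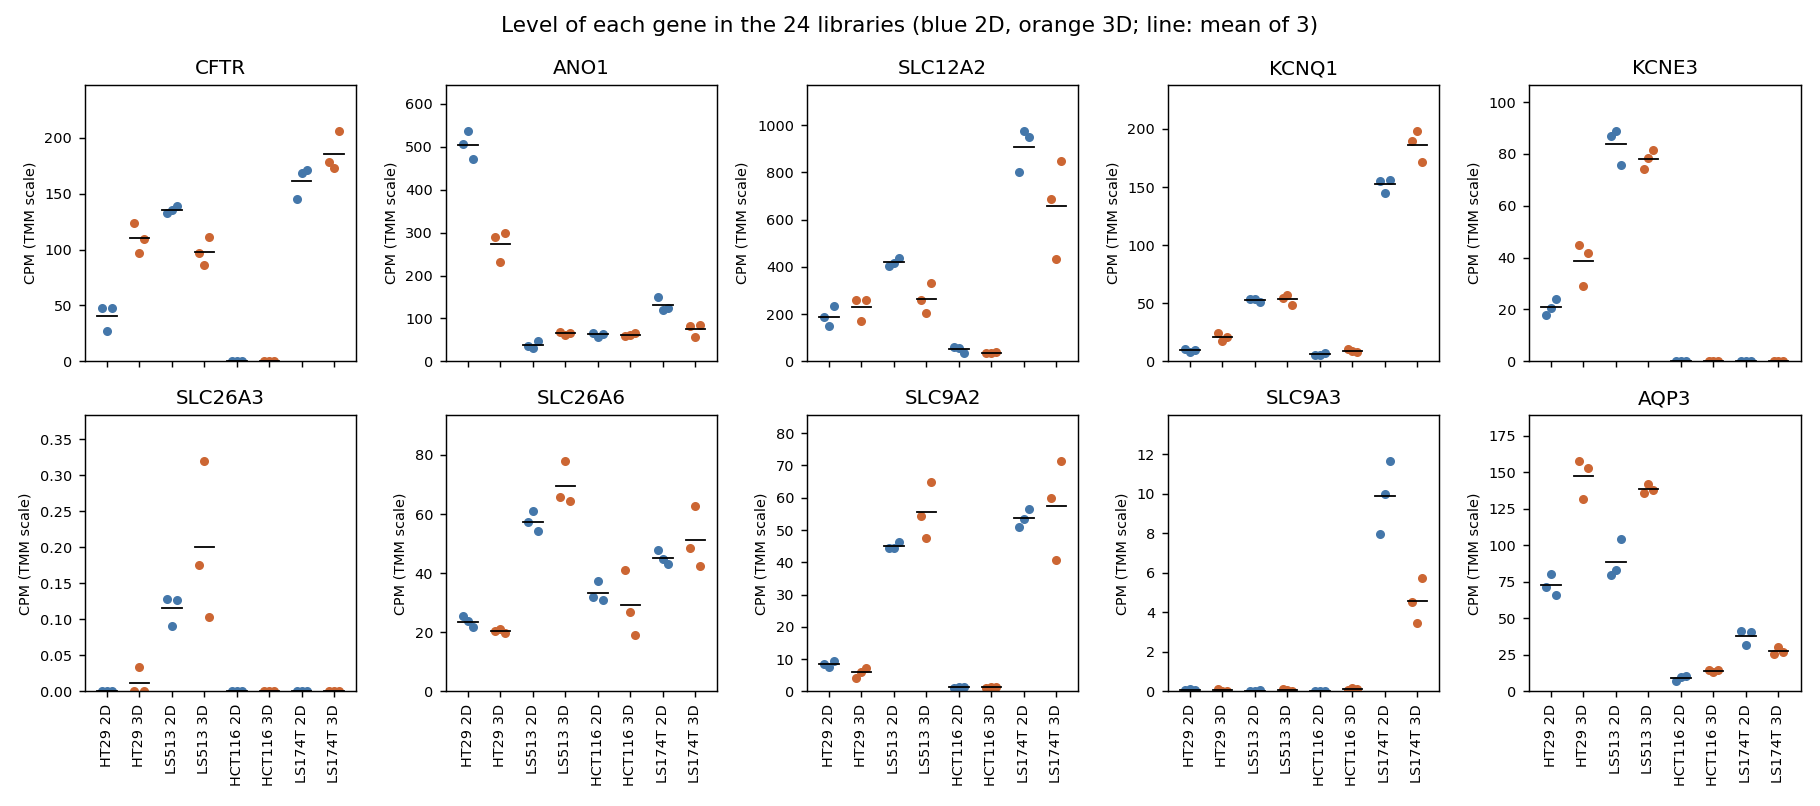
CPM on the TMM scale (vertical axis, linear from 0, a separate scale in each panel) of each gene in the 24 libraries, by line and growth (horizontal axis), with blue points for 2D, orange points for 3D and a bar at the mean of 3 libraries. CFTR in HT29, ANO1 in HT29 and AQP3 in HT29 and LS513 showed 3D points wholly apart from 2D points, and KCNE3 and SLC9A3 lay near 0 outside 2 lines and 1 line.

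Counted over the genes, HT29 had the most calls. Of the 9 tested genes, 6 were called in HT29 (4 higher and 2 lower in 3D), where 40.7% of all genes tested were called, 21.1% higher and 19.6% lower. In LS513 4 were called, 2 in each direction, against 23.6% of all genes, 13.7% higher and 9.9% lower. In HCT116 3 were called, all higher in 3D, against 29.1% of all genes, 16.8% higher and 12.3% lower. They include SLC9A3, which was not detected in HCT116 (0 to 6 counts per library). Its call was lost in leave-one-out fits as given above. In LS174T 3 were called, all lower in 3D, against 22.2% of all genes, 13.1% higher and 9.15% lower. The libraries of both conditions did not overlap for 7, 6, 3 and 5 of the 9 genes in HT29, LS513, HCT116 and LS174T, against 52.9%, 42.9%, 40.4% and 38.5% of all genes tested. SLC9A3 was again among the 3 in HCT116. Over the genes detected in a line, the median log2 fold change was 0.59 in HT29 (8 genes), 0.14 in LS513 (8 genes), -0.02 in HCT116 (6 genes) and -0.18 in LS174T (8 genes), where that of all genes tested was between 0 and 0.02.

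**Figure D4:**
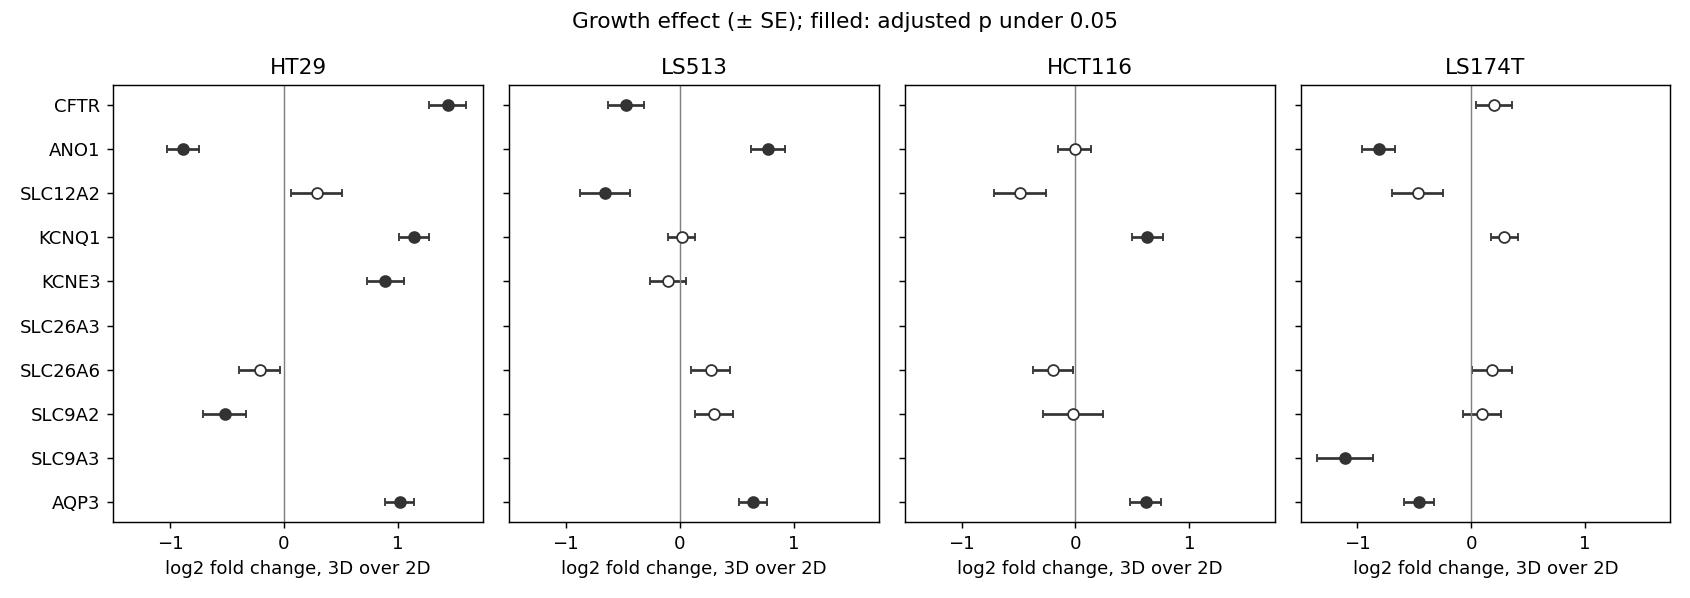
Log2 fold change of 3D over 2D (horizontal axis) with its SE for each gene (rows) in each line (panels), from edgeR, with filled points for an adjusted p under 0.05. Pairs of a gene and a line at or near the floor are left out, namely SLC26A3 throughout, CFTR in HCT116, KCNE3 in HCT116 and LS174T, and SLC9A3 outside LS174T. CFTR, ANO1 and AQP3 each had filled points on both sides of 0.

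Several genes were called in different directions in different lines. Of the 5 genes called in at least 2 lines (CFTR, ANO1, KCNQ1, SLC9A3 and AQP3), 4 were called both up and down, KCNQ1 being the exception. Among all tested genes called in at least 2 lines, this held for 8.66%. The count includes the CFTR call in LS513, the SLC9A3 call in HCT116 and the AQP3 call in LS174T, each lost in leave-one-out fits as given above. In the test of whether the growth effect was equal in the 4 lines, 6 of the 9 genes were called, where 17.1% of all genes tested were called. These were ANO1 (edgeR adjusted p = 5.85e-06), AQP3 (1.70e-05), CFTR (3.06e-05), KCNQ1 (0.000393), SLC9A3 (0.0235) and KCNE3 (0.0256), while SLC9A2 (0.113), SLC12A2 (0.120) and SLC26A6 (0.316) were not. SLC9A2 was nonetheless called for HT29 against LS513, as given above. For pairs of lines, the share of all genes tested whose growth effect was called different was 12.1% for HT29 against LS513, 7.76% for HT29 against HCT116 and 6.65% for HT29 against LS174T. It was 4.34% for LS513 against HCT116, 3.62% for LS513 against LS174T and 4.75% for HCT116 against LS174T.

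Most of the genes differed between most of the lines. Over the 6 pairs of lines and 9 genes, 46 of 54 comparisons were called in 2D, where 64.7% of such comparisons over all genes were called, and 43 of 54 in 3D (background 65.4%). The tally includes pairs of CFTR, KCNE3 and SLC9A3 that set a line holding the gene against a line at the floor. These genes passed the filter through the lines that held them, so a call in such a pair was fixed in advance. In 4 of the 2D and 1 of the 3D comparisons both lines were at the floor. The tally is therefore a description and no measure against all genes. The median fold of the called pairs was 5.97 in 2D and 5.77 in 3D, some of them against a line under the floor. KCNQ1 was called in all 6 pairs in both conditions. ANO1 was called in 6 pairs in 2D and 3 in 3D, where LS174T, LS513 and HCT116 lay at 74.9, 65.3 and 62.4 CPM and its 3D neighbours were not called different (edgeR adjusted p = 0.242 and 0.710).

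Other transport genes were read from 6 lists of 75 genes. In each list and line at most the largest called rise and the largest called fall are named. A gene named for a line may therefore have changed in other lines too. Their counts of rises and falls stand against the shares of all genes tested, which were 21.1% higher and 19.6% lower in HT29, 13.7% and 9.9% in LS513, 16.8% and 12.3% in HCT116, and 13.1% and 9.15% in LS174T. FXYD3, a small subunit that modulates the sodium pump, rose in all 4 lines, with log2 fold changes of 2.57 in HT29 (SE 0.21, edgeR adjusted p = 6.01e-09), 1.76 in LS513 (SE 0.20, adjusted p = 1.07e-06), 2.10 in HCT116 (SE 0.22, adjusted p = 3.25e-07) and 1.64 in LS174T (SE 0.20, adjusted p = 4.91e-06). In HT29 its mean went from 38.3 ± 5.82 to 227 ± 4.43 CPM (SD, n = 3). Of the 9 pump and cation-chloride genes tested, HT29 had 1 rise and 3 falls, LS513 had 2 of each, HCT116 had 5 rises and 1 fall, and LS174T had 1 rise. ATP1B3, a beta subunit of the pump, fell by 0.74 in HT29 and by 0.31 in HCT116, and ATP1B1, another beta subunit, fell by 0.54 in LS513.

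SLC5A1, the sodium-glucose cotransporter of the small intestine, was called in all 4 lines in 2 directions. It rose in HT29 from 6.59 ± 1.23 to 28.4 ± 6.24 CPM (2.11, SE 0.18, edgeR adjusted p = 7.98e-09) and in HCT116 from 3.53 ± 0.244 to 7.12 ± 0.948 CPM (1.01, SE 0.18, adjusted p = 0.00027). It fell in LS513 from 43.8 ± 6.82 to 17.9 ± 2.88 CPM (-1.29, SE 0.17, edgeR adjusted p = 4.93e-06) and in LS174T from 16.3 ± 1.77 to 3.88 ± 0.463 CPM (-2.06, SE 0.18, adjusted p = 3.08e-08). Of the 6 genes tested for sodium entry and proton exchange, 1 rose in HT29, 2 rose and 1 fell in LS513, 3 rose in HCT116, and 1 rose and 1 fell in LS174T. SCNN1A, the alpha subunit of the epithelial sodium channel, rose by 0.80 in LS174T (SE 0.14, edgeR adjusted p = 0.000271), while SCNN1B and SCNN1G, its partner subunits, failed the filter on low counts.

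Every called change among the 5 tested potassium channels of the lists was a rise, with 4 in HCT116, 3 in LS513 and 1 each in HT29 and LS174T. KCNK6 rose by 0.57 in HT29, KCNK1 by 0.82 in LS513 and 0.45 in LS174T, and KCNN4, the calcium-activated channel of crypt cells, by 0.82 in HCT116. Means in 2D and 3D are given in CPM for the other lines. KCNK6 stood at 51.8 and 74.8 in LS513, 29.4 and 44.7 in HCT116, and 28.5 and 30.1 in LS174T. KCNK1 stood at 34.7 and 34.8 in HT29 and 20.9 and 34.2 in HCT116. KCNN4 stood at 0.963 and 1.15 in HT29, 12.1 and 19.2 in LS513, and 13.4 and 10.3 in LS174T. The medians of this list were 0.24, 0.53, 0.60 and -0.11 in HT29, LS513, HCT116 and LS174T. Of 18 other anion channels and exchangers tested, 4 rose and 3 fell in HT29, 3 rose and 2 fell in LS513, 1 rose and 2 fell in HCT116, and 2 rose and 2 fell in LS174T. BEST4, a bestrophin channel, rose by 1.5 in HT29, and ANO7, a relative of ANO1, by 1.23 in LS174T. ANO10 rose by 0.42 in LS513 and SLC26A11 by 0.47 in HCT116. SLC4A7, a sodium bicarbonate cotransporter, fell by 1.03 in HT29 and by 0.84 in LS174T, and SLC26A2, a sulphate transporter, fell by 1.06 in LS513 and by 0.62 in HCT116. Every rise or fall of a named gene in these sentences was called by edgeR, and no call is given for the means of the other lines.

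Of 17 regulators tested, 3 rose and 5 fell in HT29, 4 rose and 3 fell in LS513, 1 rose and 1 fell in HCT116, and 3 rose and 2 fell in LS174T. WNK4, a kinase that acts on cation-chloride cotransporters, rose by 1.63 in HT29 (SE 0.21, edgeR adjusted p = 3.62e-06) and by 1.72 in LS174T (SE 0.23, adjusted p = 1.37e-05). WNK1 fell by 0.86 in HT29 and WNK2 by 0.61 in HCT116. Mean WNK1 in 2D and 3D was 150 and 114 CPM in LS513, 112 and 78.8 CPM in HCT116, and 272 and 161 CPM in LS174T. SGK1, a kinase induced by corticosteroids, rose by 1.32 in LS513, where PDZK1, a scaffold of apical transporters, fell by 1.00. NHERF2, another scaffold, rose by 0.30 in HCT116, and PRKACB, a catalytic subunit of protein kinase A, fell by 0.76 in LS174T. Of 4 aquaporins tested beside AQP3, 2 rose and 1 fell in HT29, 1 rose and 1 fell in LS513, none was called in HCT116 and 1 fell in LS174T. AQP5 fell by 0.40 in HT29, and AQP7, which has near-identical copies in the genome and is uncertain, rose by 1.74 in HT29 and 1.06 in LS513.

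The genes whose log2 CPM followed each member most closely over the 24 libraries are given as a description, since libraries of a line share their genome and culture and both growth conditions of a line fall together. CFTR was followed by ZNF20 and CCL15 (Pearson r = 0.995 for each), KCNE3 by SLC22A3 (0.993) and MGAT3 (0.992), and SLC12A2 by XKRX (0.984) and RHOU (0.978). KCNQ1 was followed by ARRB1 (0.979) and KRTAP5-AS1 (0.978), AQP3 by ANXA4 (0.982) and KIF13B (0.977), and SLC9A2 by ZNF429 (0.984) and XK (0.982). SLC9A3 was followed by ZNF788P (0.983) and PTGDR (0.982). For ANO1 the closest were NELFCD (0.956) and CIC (0.947), and for SLC26A6 CHKB and CHKB-CPT1B (0.939 and 0.938), which overlap each other.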

How the data were processed

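RNA was extracted from 4 cell lines grown in 2D or 3D, and polyA+ stranded libraries were sequenced as single reads. The authors trimmed reads with Trim Galore 0.4.1, aligned them with STAR, removed reads that matched more than once, and counted them by gene with HTSeq 0.5.3, so the deposited values are whole-number counts per Ensembl gene and technical replicate, with no normalization. The labels name build hg19, whereas the methods name Ensembl 91, and the strand setting of the counting is not given in the sources used here. Coordinates and exonic lengths are from GENCODE 29 on GRCh38.

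The counts of 191 deposited tables were summed over the 8 technical replicates of each of 24 libraries (7 for HT29 3D replicate 4). Between technical replicates, the median chi-square per degree of freedom over genes was 0.905 to 0.933, where Poisson counts give 0.907. Totals were 18723942 to 34277421, so that the floor of 3 counts was 0.0853 to 0.164 CPM. Intervals from the floor cover counting error only.

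Samples were grouped by the line and growth in their labels. Genes were filtered with filterByExpr, scaled by TMM and tested with the edgeR 4.0.16 quasi-likelihood test (R 4.3.3), with 1 coefficient per group over 24 libraries, and Benjamini-Hochberg adjustment over the 19387 genes tested. DESeq2 1.42.0, other size factors, no filter, a replicate block, fits of a single line, a fold cutoff and leaving out each library were the alternatives. On simulated counts for HT29, 179 of 200 changed genes were recovered (80 of 100 at a log2 change of 1 and 99 of 100 at 2) with 9 false calls. Beside the members, the text names genes annotated as overlapping them, the 2 most correlated genes of each tested member with a mean of at least 1 CPM, and in each list and line the largest called increase and decrease if its higher group held at least 1 CPM. Genes outside this rule (SCNN1B, SCNN1G and the KCNE genes) were named after their values were seen. A gene that the rule names is not reported here. The members and lists were chosen with earlier results of these data known.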

Additional observations from a re-analysis of the deposited data

Results flagged for a closer look

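The effect of 3D growth differed between the 4 lines for 6 of the 9 tested genes in edgeR's interaction test, where 17.1% of all genes tested were called. The adjusted p was 5.85e-06 for ANO1, 1.70e-05 for AQP3, 3.06e-05 for CFTR, 0.000393 for KCNQ1, 0.0235 for SLC9A3 and 0.0256 for KCNE3. For ANO1 and AQP3 all lines were above the floor, with growth effects from -0.89 to 0.78 and from -0.46 to 1.02 on the log2 scale. The CFTR, KCNE3 and SLC9A3 tests include lines whose libraries were at or under the floor of 3 counts. Between the lines that held the gene, the growth effect of KCNE3 differed by 1.00 (HT29 minus LS513, SE 0.23, edgeR adjusted p = 0.00629), and for SLC9A3 only LS174T held it, so no such difference between lines above the floor could be given.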

How the results depend on the processing

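No called growth effect of a member changed direction in 158 values under other settings or 192 leave-one-out values. Effects that were not called changed sign in 3 of the former and 10 of the latter, over 6 pairs of a member and a line, and none of these was called with the new sign. Of the values under other settings, 151 stayed on their side of the threshold, 4 lost the call and 3 gained it, and of the leave-one-out values 166 stayed, 22 lost it and 4 gained it. With the fold cutoff (log2 fold change under -0.5 or over 1.5), the count of members called was 2 in HT29 and in LS174T and 1 in LS513 and in HCT116. The cutoff drops every called rise except that of SLC9A3 in HCT116, which lay near the floor. It also drops the falls of CFTR in LS513 (-0.47) and of AQP3 in LS174T (-0.46). Leaving out 1 library gave 5 to 6 calls in HT29, 2 to 5 in LS174T, 2 to 4 in LS513 and in HCT116, 5 to 7 in the interaction test, 45 to 47 of 54 line pairs in 2D and 42 to 45 in 3D. The KCNE3 interaction was lost without any of 6 libraries (3 of HT29 and 3 of LS513) and that of SLC9A3 without HCT116 2D replicate 1 or 3D replicate 2. With every gene of at least 1 count kept, SLC12A2 was also called in HT29 (0.34, edgeR adjusted p = 0.0146), HCT116 (-0.52, 0.00014) and LS174T (-0.47, 0.000726), and the cause was not tested. Over all genes tested, same-numbered libraries of a line did not deviate together (r from -0.146 to 0.0938 over 11 pairs). Over all 36 pairs r was -0.229 to 0.221. These values cannot show whether same-numbered libraries were handled together, nor how single genes behaved. The replicate block gave 6, 3, 2 and 3 calls in HT29, LS513, HCT116 and LS174T and 6 in the interaction test, where KCNE3 was lost and SLC9A2 gained, with SLC12A2 in LS513 at an adjusted p of 0.0513 and SLC9A3 in HCT116 at 0.0551 by edgeR. Depth limited SLC26A3 everywhere, and SLC9A3 outside LS174T.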

Other observations

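Genes that overlap members on the genome had values of their own. KCNQ1OT1, the noncoding RNA transcribed from inside KCNQ1 on the opposite strand, fell with 3D growth in 3 lines. Its level went from 7.44 ± 2.43 to 2.20 ± 1.22 CPM in HT29 (-1.76, SE 0.32, edgeR adjusted p = 0.000183). It went from 8.44 ± 0.170 to 3.96 ± 0.716 CPM in LS513 (-1.09, SE 0.31, edgeR adjusted p = 0.0117) and from 2.19 ± 0.524 to 0.990 ± 0.346 CPM in LS174T (-1.13, SE 0.36, adjusted p = 0.0294). In HCT116 it went from 1.11 ± 0.298 to 0.616 ± 0.261 CPM, which was not called (-0.85, SE 0.41, edgeR adjusted p = 0.131). KCNQ1 itself rose in HT29 and HCT116, and the pair shares 2.72% of the exonic bases of KCNQ1.

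CTTNBP2, a cytoskeleton gene that meets the end of CFTR on the opposite strand and covers 0.546% of its exonic bases, rose in HT29 from 0.386 ± 0.261 to 1.94 ± 0.399 CPM (2.34, SE 0.33, edgeR adjusted p = 8.93e-06). It was highest in HCT116, the line without CFTR, at 7.93 ± 1.72 CPM in 2D and 5.44 ± 0.318 CPM in 3D (SD, n = 3; edgeR adjusted p = 0.0756). Around SLC9A3, in HCT116, SLC9A3-AS1 rose by 0.86 (SE 0.25, edgeR adjusted p = 0.0106) with overlapping libraries, EXOC3 rose by 0.29 (SE 0.07, adjusted p = 0.00329) and PP7080 fell by 0.36 (SE 0.10, adjusted p = 0.00779).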
